A study of Saccharomyces cerevisiae with 21 samples.

Results

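Ribosome-protected fragments (RPFs) on a stalling reporter were compared between yeast cells without and with Slh1, all of them lacking Dom34 and Ski2. The comparison rests on 4 of the 21 samples of the series, 2 monosome libraries of *slh1Δ dom34Δ ski2Δ* cells and 2 of *dom34Δ ski2Δ* cells, taken as every library with those genotypes that was not made from disomes. The strains are BY4741 derivatives that carry the NGD-CGA reporter, a galactose-induced GFP-2A-FLAG-HIS3 gene with 12 CGA codons inserted in HIS3, integrated at ADE2. Cultures were moved to galactose, filtered and frozen, lysates were made with cycloheximide and tigecycline, and RNase I was used to trim the ribosomes. A further 2 libraries each of *hel2Δ slh1Δ dom34Δ ski2Δ* and *hel2Δ dom34Δ ski2Δ* cells serve for 1 comparison below. The deleted genes are SLH1 (YGR271W; R64 chromosome VII, nt 1031791 to 1037694), DOM34 (YNL001W; XIV, 627456 to 628616), SKI2 (YLR398C; XII, 915156 to 919019) and HEL2 (YDR266C; IV, 1000104 to 1002023). Only reads on the reporter are in the files used, so that the deletions could not be checked from the reads.

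Slh1 is the RNA helicase of RQT, the ribosome quality control trigger complex, which takes apart ribosomes that have stalled and been struck from behind. It acts on collided ribosomes whose small subunit carries ubiquitin placed by the ligase Hel2. Dom34, with Hbs1, frees ribosomes that have run to the end of a broken message, and Ski2 is the helicase that feeds messages into the cytoplasmic exosome, so that without the pair, broken messages and the ribosomes on them persist.

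The 3 sizes of fragment report on different states of the ribosome. The 16 nt RPFs (15 to 17 nt) come from ribosomes at the 3′ end of a message and are placed by their 3′ end, where the message was cut. The 21 nt RPFs (20 to 22 nt) come from ribosomes with an empty A site and the 28 nt RPFs (27 to 32 nt) from ribosomes with an occupied A site, and both are placed at the A site. Values are in rpm, the reads at a position scaled to the depth of the library, which was 9096523 to 12634641 reads in these 4 libraries. Position 0 is where the second CGA codon begins, and negative positions lie upstream of it.

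One label goes against the others. The second *slh1Δ dom34Δ ski2Δ* library is labelled with a fragment range of 40 to 80 nt, where its title carries no mark of a disome library and the other 3 read 15 to 34 nt. It held RPFs of all 3 sizes like its partner, and results that turn on it are given without it below. Leaving it out gave log2 differences before the tract of 3.10 for 16 nt RPFs (3.13 with it) and 1.60 for 21 and 28 nt RPFs together (1.53 with it). The replicates of each strain differed by more than repeat draws of 1 library would (a chi-square test of their reads gave 5.42 to 44.8 for each degree of freedom over the sizes and strains). The labels do not say that replicates are separate cultures, so that p-values measure the spread between these libraries only.

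The reporter runs from GFP (nt 1 to 714) through the 2A peptide and a linker (715 to 810), FLAG (814 to 837) and the first part of HIS3 (838 to 1110) to the (CGA)12 tract (1111 to 1146). The rest of HIS3 follows to the stop codon (1147 to 1533) and 53 nt lie beyond it. The HIS3 part before the tract encodes the same 91 of 91 residues as the chromosomal gene (YOR202W; XV, 721946 to 722608) but shares only 82.1% of its nt, and in the 300 nt before the tract no position lacked a unique sequence for 21 or 28 nt reads and 5 did for 16 nt reads. The stretches in which most 16 nt RPFs ended are shown because the results turn on them. Capitals mark the codons with the 5 highest 16 nt values in either strain, and in the tract they mark CGA codons 2 to 5.
−183 to −154: tccatcttcccagaaaagGAAgctgaagct
−123 to −94: attaacgtccacactggtATTggtttcttg
−93 to −64: gaccacatgattcacgctttggccAAGcac
−63 to −34: tccggttggtccttgatcgttGAAtgtatt
−33 to −4: ggtGACTTGCACATTgacgaccaccacacc
tract, −3 to 32: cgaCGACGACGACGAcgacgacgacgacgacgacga

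**Figure D1:**
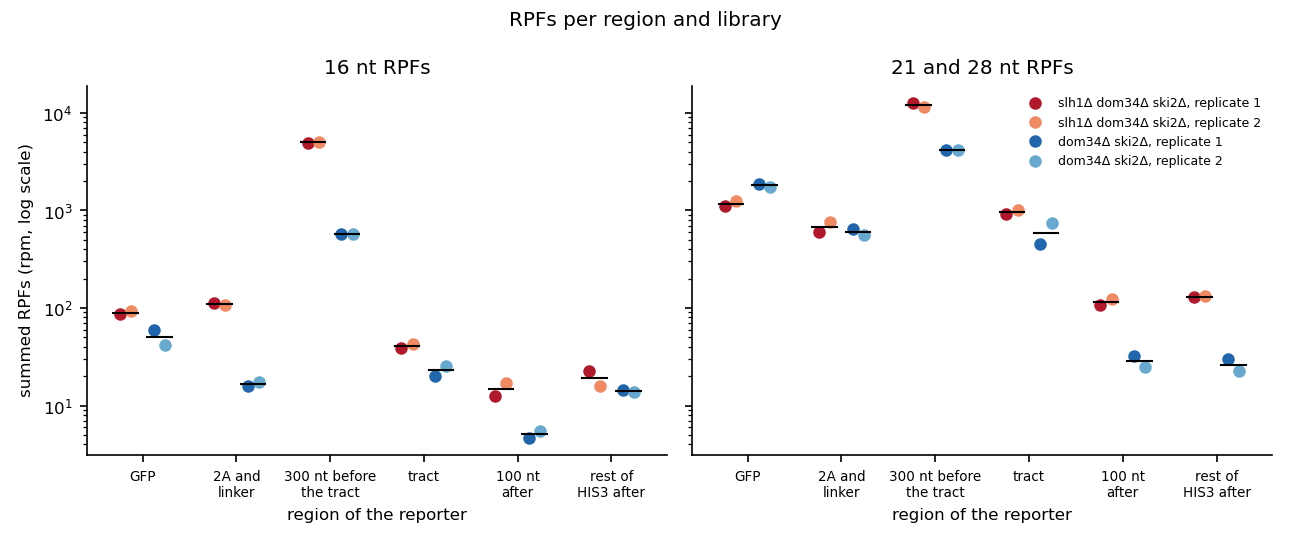
Summed rpm per region of the reporter on a log axis, 16 nt RPFs in one panel and 21 and 28 nt RPFs together in the other. Points are libraries, 2 of *slh1Δ dom34Δ ski2Δ* to the left and 2 of *dom34Δ ski2Δ* to the right in each region, and bars are means; the 300 nt before the tract carry the highest sums, and GFP is the region where 21 and 28 nt RPFs were lower without Slh1.

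Without Slh1, 21 and 28 nt RPFs were more numerous in the 300 nt before the tract and beyond it, and less numerous on GFP. In the 300 nt before the tract, RPFs of 21 and 28 nt summed to 12700.1 and 11531 rpm in *slh1Δ dom34Δ ski2Δ* cells, against 4167 and 4194 rpm in *dom34Δ ski2Δ* cells. The strains did not overlap, and the ratio of means was 2.90 (log2 difference 1.53 of sums plus 1 rpm, 1.61 and 1.46 within the first and second set of libraries). Over GFP the same RPFs came to 1118 and 1238 rpm in *slh1Δ dom34Δ ski2Δ* cells and 1861 and 1755 rpm in *dom34Δ ski2Δ* cells (log2 difference −0.62). Over the 2A peptide and linker the strains overlapped, with 597 and 758 rpm without Slh1 and 653 and 559 rpm with it (log2 difference 0.16, exact permutation p = 0.667). With 2 libraries against 2, no exact two-sided permutation test can give a p below 0.33, which is the value for every region sum in which the strains did not overlap.

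The rpm scale counts against all mRNAs of a library, and the amount of reporter message was not measured here. Relative to the far-upstream RPFs, here each library's sum of both these sizes at more than 300 nt 5′ of the tract, most of it on GFP, the log2 difference before the tract became 1.92. A ratio of regions within each library needs no scale of this kind. The density of 21 and 28 nt RPFs before the tract was 27 and 22.2 times that on GFP in *slh1Δ dom34Δ ski2Δ* cells, against 5.33 and 5.69 times in *dom34Δ ski2Δ* cells. This ratio was higher in both libraries without Slh1 than in either library with it (exact permutation p = 0.33, the smallest possible). Over the 2A peptide and linker it was 3.97 and 4.56 times without Slh1 and 2.61 and 2.37 times with it.

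The 28 nt RPFs without Slh1 also lay farther back within the 300 nt. Their mean position there was 112.6 and 111.0 nt upstream of the tract in *slh1Δ dom34Δ ski2Δ* cells, against 85.4 and 84.5 nt in *dom34Δ ski2Δ* cells, a difference of 26.9 nt. Over the whole frame upstream, GFP included, the direction was the opposite, with means of 162 and 168 nt without Slh1 and 274 and 257 nt with it (−100.2 nt). The reporter was also cut into 30 nt bins, whose log2(rpm + 0.1) was fitted with limma and the p-values adjusted over all bins. Of these, 30 of 52 (57.7%) passed an adjusted p of 0.05, 21 higher (40.4% of those tested) and 9 lower (17.3%). All 30 nt bins from 64 to 273 nt before 0 were higher, 7 in a row. The nearest bin, −33 to −4, was at 840.3 and 979 rpm without Slh1 and 1207 and 992 rpm with it, which did not pass. The bin behind it, −63 to −34, held 1128 and 1035 rpm against 485 and 705 rpm (log2 difference 0.88, limma adjusted p = 0.0848). Farther back the excess was larger, and the bin −213 to −184 held 1152 and 982 rpm in *slh1Δ dom34Δ ski2Δ* cells against 180.1 and 174 rpm in *dom34Δ ski2Δ* cells (log2 difference 2.59, limma adjusted p = 3.66e-09).

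The 28 nt RPFs fell off sharply upstream in both strains. Beyond this edge the bin −273 to −244 was still called higher without Slh1 (log2 difference 1.13, limma adjusted p = 0.0183). The bin −243 to −214 held 726 and 844 rpm of 28 nt RPFs without Slh1 and 198 and 148 rpm with it, while the bin −273 to −244 held 58.4 and 40.9 rpm and 29.3 and 17 rpm. Both strains shared this edge, which lay within the first of these bins between codons chosen after their values were seen. The AAG codon at −234 carried 142 and 145 rpm in *slh1Δ dom34Δ ski2Δ* cells and 35.2 and 20.7 rpm in *dom34Δ ski2Δ* cells, and the codon 5′ of it, ACC at −237, carried 1.19 and 3.20 rpm and 0.826 and 1.87 rpm.

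**Figure D2:**
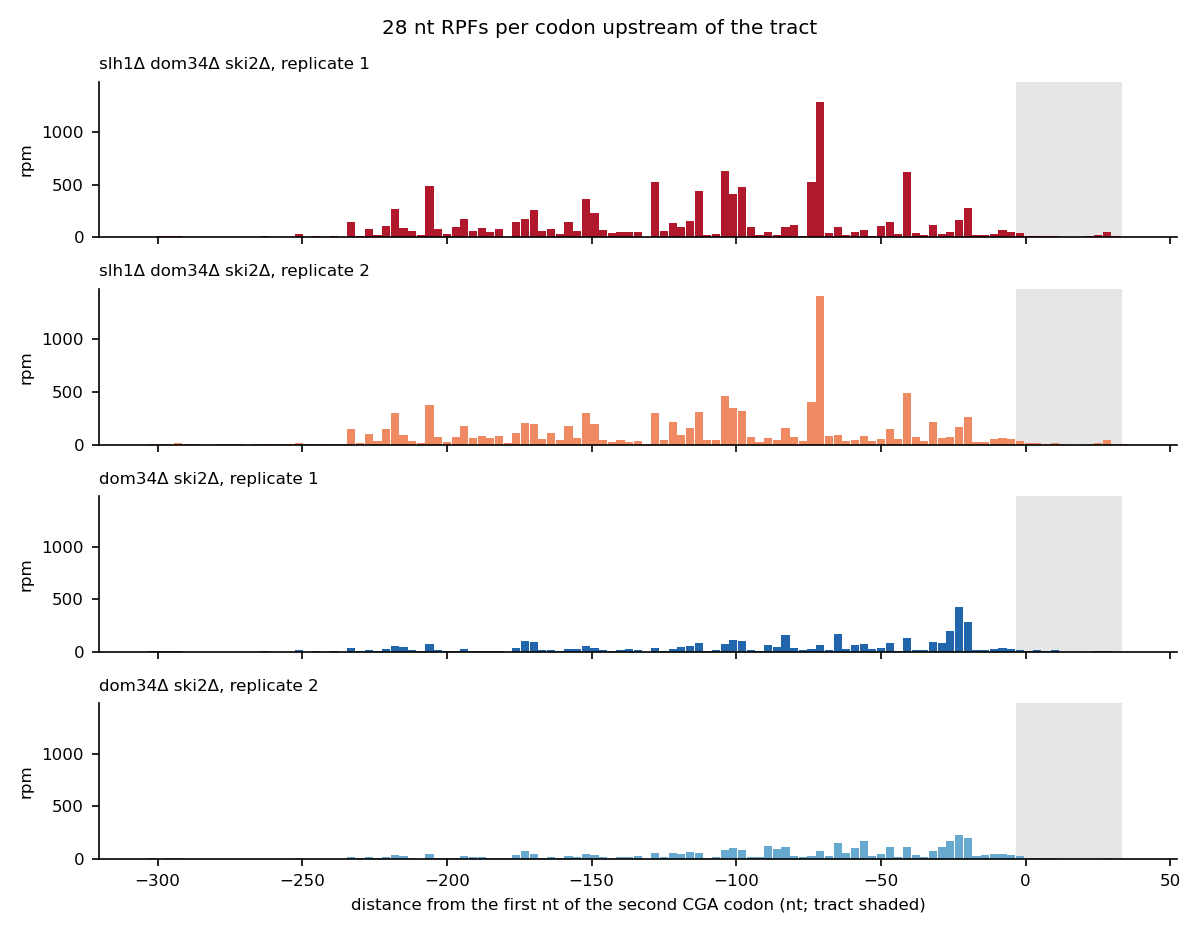
28 nt RPFs (rpm per codon, linear axis) from 303 nt before the second CGA codon to the end of the tract, 1 panel per library, the 2 *slh1Δ dom34Δ ski2Δ* libraries above the 2 *dom34Δ ski2Δ* libraries, tract shaded. The highest codon without Slh1 is GCC at −72 (1288 and 1410 rpm) and with Slh1 CAC at −24 in one library (429 rpm) and the same codon in the other (229 rpm).

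By single codons, 28 nt RPFs were called different in 99 of 446 windows tested (22.2%; higher in 90, 20.2%, and lower in 9, 2.02%). In the 300 nt before the tract 41 of 96 windows were higher and none was lower. The windows had passed a minimum of 0.5 rpm averaged over all 14 monosome libraries, and 70 of the 446 lay under it in *dom34Δ ski2Δ* cells, of which 28 were called higher. The median log2 difference of all windows was 0.07. The count of 99 fell to between 24 (without the second *dom34Δ ski2Δ* library) and 51 (without the first), with 33 and 48 on leaving out the first or second *slh1Δ dom34Δ ski2Δ* library.

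The 2 strains had different summits. The highest 28 nt codon without Slh1 was GCC at −72, with 1288 and 1410 rpm in *slh1Δ dom34Δ ski2Δ* cells against 64.2 and 75.5 rpm in *dom34Δ ski2Δ* cells (log2 difference 4.27, SE 0.53, limma adjusted p = 1.79e-05). Its neighbour TTG at −75 held 521 and 404 rpm without Slh1 and 27.6 and 25.2 rpm with it (4.12). These were the largest rises of any 28 nt window called. ATT at −105 (631 and 462 rpm against 69.9 and 86.7 rpm) and GGT at −207 (489 and 377 rpm against 74.0 and 51.4 rpm) rose by 2.79 and 2.8 on the log2 scale, and the call at −207 was lost without the second *dom34Δ ski2Δ* library (adjusted p = 0.0659). GAA at −42 held 620 and 490 rpm in *slh1Δ dom34Δ ski2Δ* cells and 130.1 and 110 rpm in *dom34Δ ski2Δ* cells (2.20, adjusted p = 0.0139), a call that did not survive leaving out any 1 of the 4 libraries (adjusted p from 0.0597 to 0.126).

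The codons that led in the strain with Slh1 did not share in this. CAC at −24, its highest, held 164 and 170.4 rpm in *slh1Δ dom34Δ ski2Δ* cells and 429 and 229 rpm in *dom34Δ ski2Δ* cells (log2 difference −0.90, adjusted p = 0.311). TTG at −27 held 52.3 and 70.7 rpm without Slh1 and 198 and 172 rpm with it (−1.60, adjusted p = 0.0502), which passed in the fit of the 4 libraries alone (0.00481), with edgeR (0.0446) and relative to the far-upstream RPFs (0.0353). ATT at −21, CAC at −66 and ATT at −84 differed by 0.19, −0.72 and −0.11 on the log2 scale and were not called. Summed over −30 to −19, 28 nt RPFs came to 533 and 559 rpm in *slh1Δ dom34Δ ski2Δ* cells and 991 and 716 rpm in *dom34Δ ski2Δ* cells.

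Before the tract, the shape of the 28 nt profile was more alike within a strain than between strains. Across the 300 positions before the tract, 28 nt rpm correlated at r = 0.944 between the *slh1Δ dom34Δ ski2Δ* libraries and 0.878 between the *dom34Δ ski2Δ* libraries, but at 0.410 to 0.480 between strains. Across the 714 positions of GFP the values between strains were 0.798 to 0.912. Those within strains overlapped them there, at 0.883 without Slh1 and 0.923 with it. These correlations are over positions, which share codons and library and are not independent, and on a log scale those before the tract were 0.811 to 0.875 between strains.

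**Figure D3:**
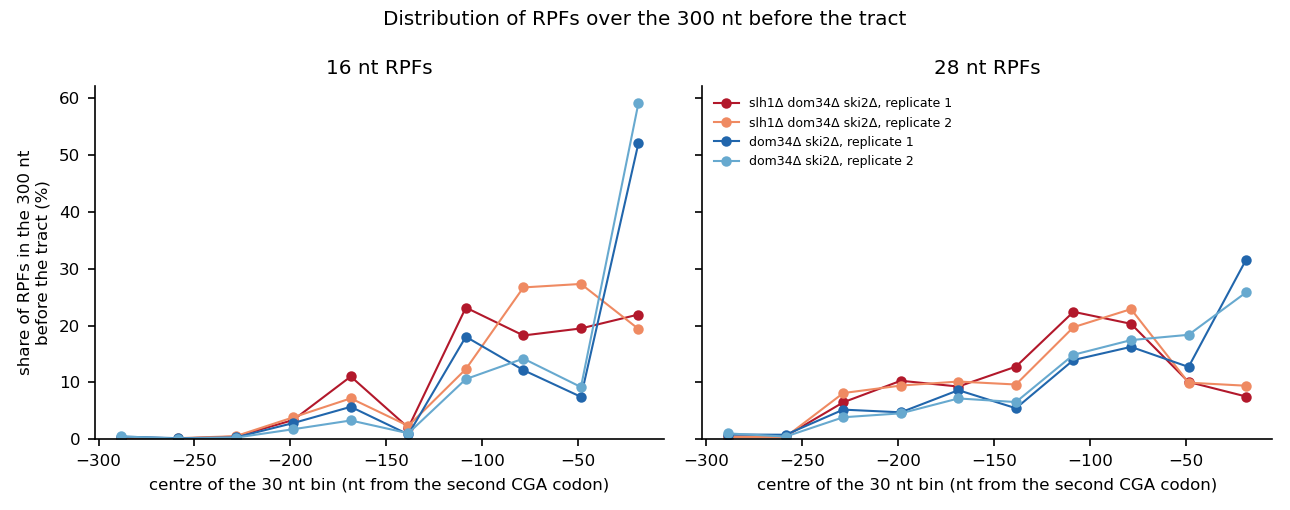
Percent of the RPFs of the 300 nt before the tract that fell in each 30 nt bin, 16 nt and 28 nt RPFs in separate panels, 1 line per library. In *slh1Δ dom34Δ ski2Δ* cells the bin next to the tract holds 21.9 and 19.4% of 16 nt RPFs, against 52.2 and 59.2% in *dom34Δ ski2Δ* cells.

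The 21 nt RPFs were also more numerous before the tract without Slh1. They summed there to 1493 and 1118 rpm in *slh1Δ dom34Δ ski2Δ* cells and 347 and 355 rpm in *dom34Δ ski2Δ* cells (log2 difference 1.88). Their mean position within the 300 nt overlapped between strains, at 102.8 and 93.7 nt upstream without Slh1 and 96.5 and 87.2 nt with it (difference 6.44 nt, exact permutation p = 0.667). Of 323 codon windows tested, 47 (14.6%) were called and every one was higher without Slh1, 34 of them among the 82 tested before the tract. Of the 323, 48 lay under 0.5 rpm in *dom34Δ ski2Δ* cells, and 11 of these were called higher. The median over all 323 was −0.12. With 1 library fewer the count was 5 and 23 (without the first or second *slh1Δ dom34Δ ski2Δ* library) and 8 and 11 (without the first or second *dom34Δ ski2Δ* library). In 30 nt bins, which pool more reads, 22 of 52 (42.3%; 20 higher, 38.5%, and 2 lower, 3.85%) were called, and the 8 bins from −273 to −34 were all higher, by 1.64 to 2.63 on the log2 scale.

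The leading 21 nt codon outside the tract was TCC at −63, with 167 and 107 rpm in *slh1Δ dom34Δ ski2Δ* cells against 6.36 and 12.6 rpm in *dom34Δ ski2Δ* cells (log2 difference 3.88, SE 0.55, limma adjusted p = 6.67e-05). The next largest rise after it among the 21 nt windows called was that of AAG at −69, with 29.1 and 57.7 rpm without Slh1 and 3.39 and 2.53 rpm with it (3.76). CAA at −144 and ATC at −219 rose by 3.61 and 3.43, calls that were lost without the first *slh1Δ dom34Δ ski2Δ* library (adjusted p = 0.0619 and 0.0578). The CCT codon at −306, which ends the 2A peptide's NPGP motif, was one of the highest 21 nt codons with Slh1 and held 15.0 and 21 rpm in *slh1Δ dom34Δ ski2Δ* cells and 34.9 and 46.2 rpm in *dom34Δ ski2Δ* cells (−1.17, not called).

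Of the ribosomes counted by 21 and 28 nt RPFs, the 21 nt size made up 11.8 and 9.69% before the tract without Slh1 and 8.32 and 8.46% with it. Over the 2A peptide and linker it made up 17.6 and 16.7% in *slh1Δ dom34Δ ski2Δ* cells and 24.9 and 32% in *dom34Δ ski2Δ* cells, a difference of −11.3 percentage points with no overlap (exact permutation p = 0.33). On GFP it made up 25.9 and 25.7% and 25.8 and 28.8%, and in the tract 78.7 and 86.1% and 79.8 and 87.8%. The 95% Wilson intervals reached at most 0.283 percentage points to either side before the tract and 1.30 points in the other regions, counting error only. Replicates in the tract thus differed from each other by more than the strains did.

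The tract itself was occupied in both strains. Its 21 and 28 nt RPFs summed to 919.6 and 1006 rpm in *slh1Δ dom34Δ ski2Δ* cells, against 452 and 736 rpm in *dom34Δ ski2Δ* cells (log2 difference 0.74). In CGA codons 2 to 5 the 21 nt RPFs summed to 516 and 583 rpm without Slh1 and 321 and 590.4 rpm with it, overlapping values (exact permutation p = 1). The second codon held 142 and 147 rpm in *slh1Δ dom34Δ ski2Δ* cells and 88.1 and 224 rpm in *dom34Δ ski2Δ* cells, and the third 164 and 195 rpm and 107 and 167 rpm. The fourth held 77.7 and 90.9 rpm without Slh1 and 54.2 and 93.2 rpm with it, and the fifth 132 and 150.3 rpm and 72.1 and 106 rpm. None of these 4 codons was called.

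The strains parted at the sixth CGA codon. There the 21 nt RPFs were 98.5 and 141 rpm in *slh1Δ dom34Δ ski2Δ* cells, against 18.4 and 21.5 rpm in *dom34Δ ski2Δ* cells (log2 difference 2.56, SE 0.68, limma adjusted p = 0.0149). The call was lost on leaving out any 1 of the 4 libraries (adjusted p from 0.0619 to 0.0959). Reads wholly inside the repeat have no unique place, and the codons from 15 to 24 nt after 0 were listed at 0 in every library. At the last CGA codon, 30 nt after 0 and chosen after its values were seen, the 21 nt RPFs were 92.4 and 121 rpm without Slh1 and 10.9 and 10.3 rpm with it (log2 difference 3.30, adjusted p = 0.000301).

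Ribosomes beyond the tract were more numerous without Slh1 by a larger factor than those before it. In the 100 nt after the tract 21 and 28 nt RPFs summed to 108 and 124 rpm in *slh1Δ dom34Δ ski2Δ* cells, against 32.5 and 25.1 rpm in *dom34Δ ski2Δ* cells, a ratio of means of 4.04. From there to the stop codon the sums were 129 and 132 rpm without Slh1 and 29.7 and 22.8 rpm with it, a ratio of 4.99. After the stop codon 0.317 and 0.825 rpm were left without Slh1 and 0.413 and 0 rpm with it. The density between tract and stop codon was 39.2 and 38.2% of that on GFP in *slh1Δ dom34Δ ski2Δ* cells and 6.16 and 5.03% in *dom34Δ ski2Δ* cells (ratio of means 6.92, exact permutation p = 0.33). Set against the density before the tract it was 1.45 and 1.72% without Slh1 and 1.16 and 0.884% with it, values that did not overlap (exact permutation p = 0.33).

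Most 28 nt RPFs downstream kept to the reading frame. They lay on the second nt of the codon in 60.2 and 65.6% in *slh1Δ dom34Δ ski2Δ* cells and 62.8 and 70.0% in *dom34Δ ski2Δ* cells, with Wilson intervals of up to 5.32 percentage points to either side. The 21 nt RPFs lay on that nt in 52.1 and 47.5% without Slh1 and 56.7 and 40.0% with it (at most 8.76 points to either side). All 14 of the 28 nt bins from 27 nt onward, the first of which begins in the last CGA codons, were higher without Slh1, by 1.57 to 2.72 on the log2 scale, as were 12 of the 14 of 21 nt RPFs. Single codons downstream carried few reads. Those named next were among the 5 largest called rises of their size, and their ratios and intervals do not allow for that choice. Each lay under 0.5 rpm in *dom34Δ ski2Δ* cells and passed the minimum through other strains. For the ratios, the reads of both libraries of a strain were pooled. GCC at 351 held 31 and 18 reads of 28 nt without Slh1 and 2 and 0 with it, a ratio of 23.3 at equal depth (95% exact interval 6.10 to 197, counting error only). CGT at 297 held 22 and 17 reads and 1 and 0 (37.0, interval 6.26 to 1499), and TTG at 294 held 22 and 14 reads of 21 nt and 0 and 1 (34.2, interval 5.75 to 1387). GCC at 120 held 11 and 13 reads of 28 nt without Slh1 and none with it, at least 7.59-fold higher against a floor of 3 reads over both *dom34Δ ski2Δ* libraries. The call at 351 was lost without the second *dom34Δ ski2Δ* library and that at 294 without the first library of either strain.

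**Figure D4:**
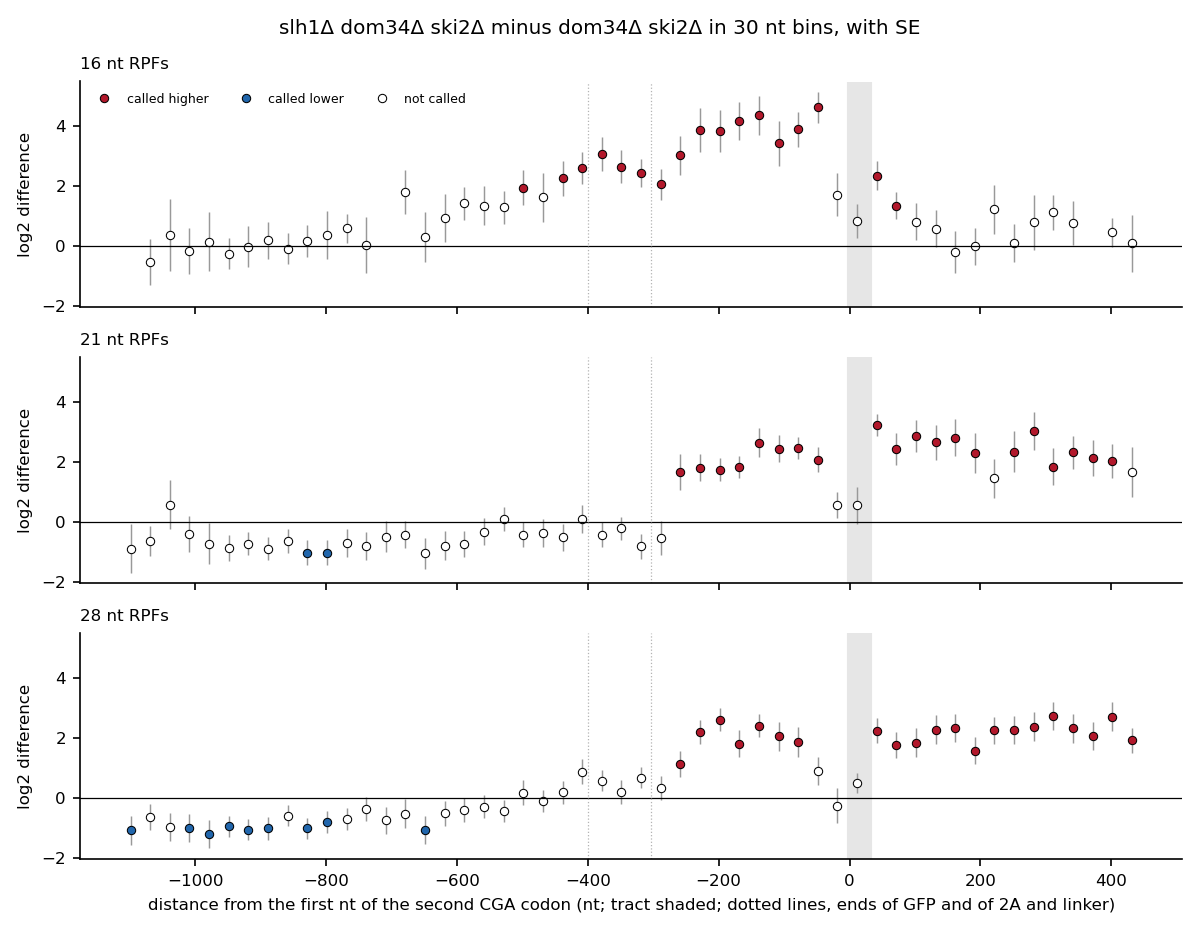
Log2 difference (*slh1Δ dom34Δ ski2Δ* minus *dom34Δ ski2Δ*) per 30 nt bin along the reporter with its standard error, 1 panel per RPF size, red where called higher, blue where called lower and open where not called, dotted lines at the ends of GFP and of the linker. The 28 nt bins called lower all lie in GFP, and the 16 nt bins called lie from late GFP to just beyond the tract.

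On GFP the 28 nt RPFs fell in 9 of 24 bins and rose in none (2 of 24 fell for 21 nt RPFs). The lowest of those called was −1.21 on the log2 scale. Relative to the far-upstream RPFs, 4 bins of the whole reporter were lower and 27 higher in place of 9 and 21, and no 21 nt bin was lower. GFP's own RPFs make up most of that divisor, so that GFP is there set against itself, and the median bin of the reporter moves to 0.78 on that scale, against 0.40 in rpm. With 1 library left out, 3 (first *slh1Δ dom34Δ ski2Δ*), 1 (second), 1 (first *dom34Δ ski2Δ*) and 2 (second) bins were lower. The 5 windows of largest fall, TCC at −900, AAA at −723, CTT at −936, ACT at −825 and ACG at −657, fell by 2.62 to 1.89 on the log2 scale. They held 0 to 1.75 rpm in *slh1Δ dom34Δ ski2Δ* cells and 1.16 to 4.88 rpm in *dom34Δ ski2Δ* cells. Each lost its call when either *dom34Δ ski2Δ* library was left out.

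Of the region sums, 16 nt RPFs before the tract had the largest ratio between strains. They summed to 4922 and 5087 rpm in *slh1Δ dom34Δ ski2Δ* cells, against 574 and 569.9 rpm in *dom34Δ ski2Δ* cells, a ratio of means of 8.75 (log2 difference 3.13, and 3.10 and 3.16 in the 2 sets of libraries). They made up 27.9 and 30.6% of RPFs of all sizes there without Slh1 and 12.1 and 12% with it. Over the 2A peptide and linker they summed to 112 and 108 rpm in *slh1Δ dom34Δ ski2Δ* cells and 15.8 and 17.4 rpm in *dom34Δ ski2Δ* cells, a ratio of 6.61. GFP differed less, with 86.4 and 92.2 rpm and 59.2 and 41.3 rpm, and so did the tract, with 38.6 and 42.3 rpm and 20.2 and 25.7 rpm.

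**Figure D5:**
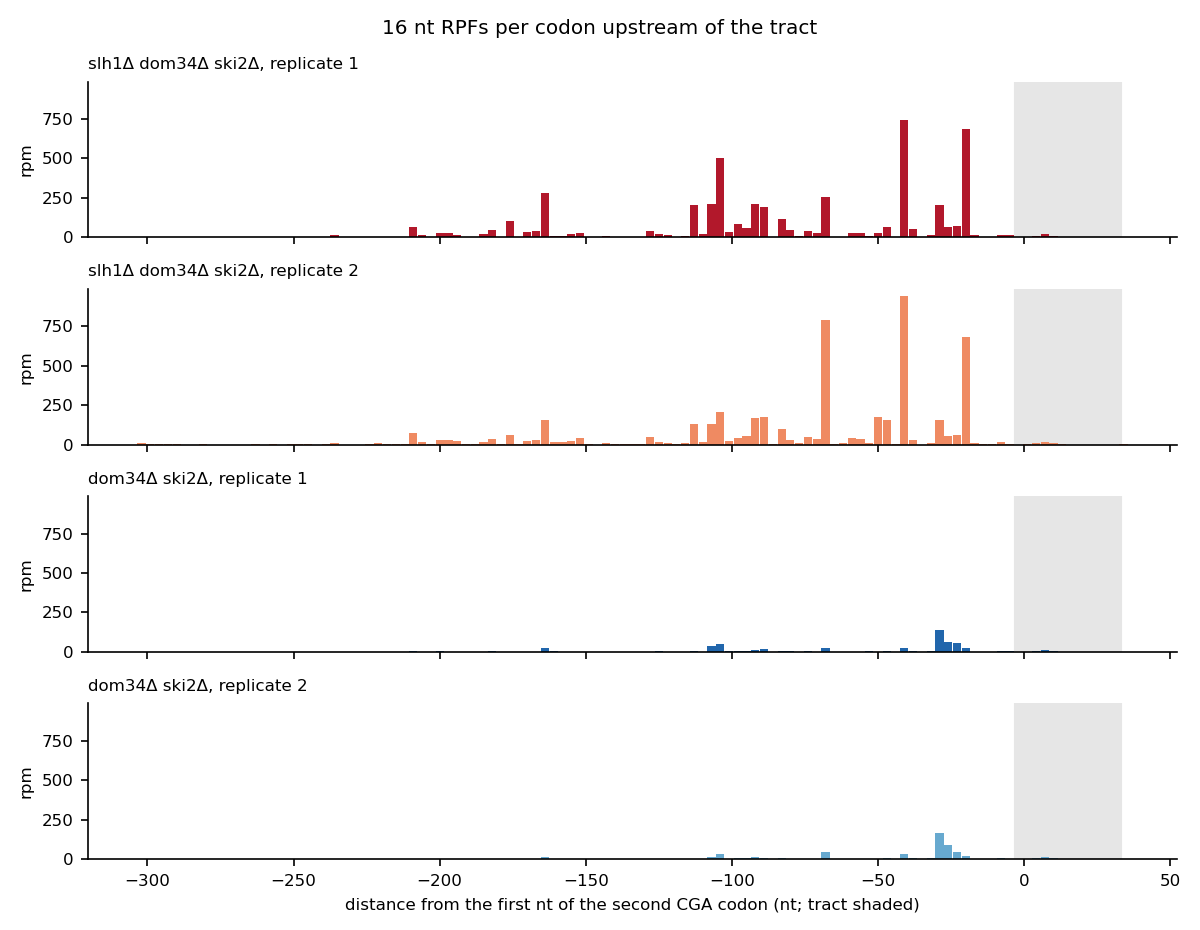
16 nt RPFs (rpm per codon by their 3′ end, linear axis) from 303 nt before the second CGA codon to the end of the tract, 1 panel per library, the 2 *slh1Δ dom34Δ ski2Δ* libraries above the 2 *dom34Δ ski2Δ* libraries, tract shaded. Without Slh1 the peaks stand at GAA −42, ATT −21, AAG −69, ATT −105 and GAA −165, and with Slh1 the highest stands at GAC −30.

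Within the 300 nt, 16 nt 3′ ends lay on average farther upstream without Slh1. Some of the added ends lay nearer the tract than GAC at −30, the highest 16 nt codon with Slh1. ATT at −21 held 686 and 680 rpm without Slh1 and 25.3 and 21.3 rpm with it. Of the 16 nt RPFs of the 300 nt, *slh1Δ dom34Δ ski2Δ* cells had 21.9 and 19.4% in the last 30 nt and *dom34Δ ski2Δ* cells 52.2 and 59.2%, and in the 30 nt behind them the shares were 19.5 and 27.3% without Slh1 and 7.44 and 9.16% with it (Wilson intervals of at most 1.34 percentage points to either side). The mean 3′ end moved to 80.2 and 72.4 nt upstream in *slh1Δ dom34Δ ski2Δ* cells, against 61.4 and 51.7 nt in *dom34Δ ski2Δ* cells, while over the whole frame upstream the means were 95.6 and 88.0 nt without Slh1 and 132 and 106 nt with it (−27.2 nt). Per bin, 17 of 49 (34.7%) were called and all were higher. The bin −63 to −34 rose most, to 959 and 1390.3 rpm in *slh1Δ dom34Δ ski2Δ* cells against 42.7 and 52.2 rpm in *dom34Δ ski2Δ* cells (log2 difference 4.61, limma adjusted p = 1.76e-05). The bin next to the tract, with 1080.1 and 987 rpm without Slh1 and 299.6 and 338 rpm with it, was not called (1.70, adjusted p = 0.0771).

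In codon windows 76 of 130 (58.5%) were called for 16 nt RPFs and all were higher. They were 54 of the 64 tested before the tract, 14 of 17 in the 2A peptide and linker, 6 of 38 in GFP and 2 of 3 in the 100 nt after the tract. The median of all 130 windows was 2.48 on the log2 scale. Of the 130, 36 lay under 0.5 rpm with Slh1, and 25 of these were called. With 1 library fewer, 53 to 60 windows were called.

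The highest 16 nt codon without Slh1 was GAA at −42, with 744 and 941 rpm in *slh1Δ dom34Δ ski2Δ* cells against 24.2 and 29.8 rpm in *dom34Δ ski2Δ* cells (log2 difference 4.96, SE 0.81, limma adjusted p = 0.000247). ATT at −21 was next with 686 and 680.2 rpm without Slh1 and 25.3 and 21.3 rpm with it (4.87, SE 0.76, adjusted p = 0.000235). Replicates were close at both. They were farther apart at AAG −69, with 257 and 793 rpm in *slh1Δ dom34Δ ski2Δ* cells against 25.5 and 45.6 rpm in *dom34Δ ski2Δ* cells (3.72), or at ATT −105, with 502 and 209.6 rpm against 49.7 and 33.1 rpm (3.00). The call at −69 was lost without the second *slh1Δ dom34Δ ski2Δ* library (adjusted p = 0.0597) and that at −105 without the first (0.0725). GAA at −165 held 284 and 158 rpm without Slh1 and 21.1 and 10.6 rpm with it (3.82).

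The codons just 5′ of ATT −21 behaved otherwise. GAC at −30, the highest 16 nt codon with Slh1, held 205 and 158 rpm in *slh1Δ dom34Δ ski2Δ* cells and 137 and 169 rpm in *dom34Δ ski2Δ* cells (log2 difference 0.25, SE 0.72, adjusted p = 0.827). TTG at −27 held 63.5 and 52.4 rpm without Slh1 and 60.2 and 88.8 rpm with it, and CAC at −24 held 71.3 and 59.2 rpm and 54.7 and 44.9 rpm, and neither was called. Of the 4 codons capitalised in the stretch −33 to −4, the first and second overlapped between strains, the third did not overlap but was not called, and the fourth was called.

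The largest 16 nt rises included codons that were nearly empty with Slh1. GTT at −153 held 24.4 and 43.6 rpm in *slh1Δ dom34Δ ski2Δ* cells against 0.0826 and 0.330 rpm in *dom34Δ ski2Δ* cells (log2 difference 6.87), and TTC at −177 held 106 and 63.0 rpm against 1.16 and 0.770 rpm (6.29). CAC at −114, TTG at −51 and ATC at −48 rose by 5.36, 5.11 and 5.06. In *dom34Δ ski2Δ* cells they held 6.86 and 2.20 rpm, 1.40 and 2.64 rpm, and 1.98 and 4.18 rpm. In the region of the 2A peptide and linker, ATG at −381, chosen after its values were seen, held 13.6 and 13.9 rpm without Slh1 and 0.578 and 1.65 rpm with it (3.67).

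Most 16 nt 3′ ends before the tract kept to the reading frame. In those 300 nt, 90.9 and 92.1% ended on the first nt of a codon in *slh1Δ dom34Δ ski2Δ* cells and 87.6 and 91.8% in *dom34Δ ski2Δ* cells. Over the 2A peptide and linker the values were 84.6 and 84.1% without Slh1 and 50.3 and 50.0% with it, and over GFP 67.9 and 70.8% and 47.7 and 45.2%. Wilson intervals reached at most 7.70 percentage points to either side on GFP and the 2A peptide, where the fewest reads were counted (158 in the 2A peptide and linker of the second *dom34Δ ski2Δ* library). In the tract the first nt held only 20.5 and 32% without Slh1 and 20.4 and 11.1% with it, and the second nt 73.2 and 60% and 64.9 and 77.4%. Downstream the first nt held 51.1 and 38.6% in *slh1Δ dom34Δ ski2Δ* cells and 49.8 and 37.1% in *dom34Δ ski2Δ* cells (at most 7.37 points to either side in both).

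The 16 and 28 nt profiles were set against each other at different lags over the 300 nt, as a description, since positions are not independent. The rpm of 16 nt 3′ ends correlated best with that of 28 nt A sites lying 29 nt upstream in both *slh1Δ dom34Δ ski2Δ* libraries (r = 0.386 and 0.545, beside 0.377 and 0.275 at A sites 1 nt downstream), and in *dom34Δ ski2Δ* libraries with A sites 7 nt (0.749) and 4 nt (0.619) downstream. The highest 16 nt codon, GAA at −42, stood 30 nt in front of the highest 28 nt codon, GCC at −72. Behind AAG −69 and GAA −165, the 28 nt codons 30 nt upstream, taken for their distance, were also called higher, TTC at −99 with 480.1 and 320 rpm in *slh1Δ dom34Δ ski2Δ* cells against 101 and 84.6 rpm in *dom34Δ ski2Δ* cells (log2 difference 2.08) and GCC at −195 with 177 and 175 rpm against 22.7 and 25.0 rpm (2.88). Behind ATT −21 and ATT −105 they were not (TTG at −51, 102 and 51.8 rpm against 39.4 and 44.5 rpm; CAA at −135, 46.6 and 30.7 rpm against 15.8 and 24.6 rpm). Of all 28 nt windows tested before the tract, 41 of 96 were called higher, so that these few calls do not by themselves show a spacing. On a log scale, where a few high codons weigh less, the best lag was 1 nt in both *slh1Δ dom34Δ ski2Δ* libraries and in the first *dom34Δ ski2Δ* library, and r at 29 nt was 0.411 and 0.461 without Slh1 and 0.378 and 0.461 with it.

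Among themselves, 28 nt RPFs repeated best at 24 nt (r = 0.340) and 30 nt (0.369) in the *slh1Δ dom34Δ ski2Δ* libraries and at 42 nt (0.510) and 36 nt (0.593) in the *dom34Δ ski2Δ* libraries, of lags from 15 to 60 nt. The r at 30 nt was 0.325 and 0.369 without Slh1 and 0.165 and 0.471 with it, so that the strains overlapped.

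The same deletion of SLH1 was also made in cells that lacked Hel2. Without Hel2, 16 nt RPFs before the tract summed to 218 and 239 rpm in *hel2Δ slh1Δ dom34Δ ski2Δ* cells, against 284 and 321 rpm in *hel2Δ dom34Δ ski2Δ* cells (log2 difference −0.40). This stood 3.53 below the difference in cells with Hel2 (permuting HEL2 labels, exact two-sided p = 0.33, where 0.0556 is the smallest possible and the permuted labels carry Hel2's own effect too). Over codon windows the 2 effects differed in 54 of 130 for 16 nt RPFs (41.5%, limma adjusted p under 0.05), each time with the larger rise in the cells with Hel2. They differed in 19 of 323 for 21 nt RPFs (5.88%; larger in the cells with Hel2 in 17, 5.26%, and smaller in 2, 0.619%) and in 14 of 446 for 28 nt RPFs (3.14%; larger in 6, 1.35%, and smaller in 8, 1.79%). The split of the 28 nt windows depends on the scale. Relative to the far-upstream RPFs 90 windows differed, 83 with the larger and 7 with the smaller rise in the cells with Hel2 (median of all windows 0.74, against −0.35 in rpm). With any 1 of the 4 libraries with Hel2 left out, 32 to 38, 0 to 16 and 0 to 1 windows of 16, 21 and 28 nt RPFs differed.

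The same contrast was also taken over 30 nt bins, after its windows had been seen. The effects differed in 15 of 49 bins for 16 nt RPFs (30.6%), each time larger in the cells with Hel2, 9 of them in the 10 bins before the tract and 3 in each of the 2A peptide and linker and GFP. For 21 nt RPFs 14 of 52 differed (26.9%; larger in 11, 21.2%, and smaller in 3, 5.77%), the larger among them 6 before the tract, 1 in it and 4 beyond it. For 28 nt RPFs 22 of 52 differed (42.3%; larger in 10, 19.2%, and smaller in 12, 23.1%). The 12 smaller all lay among the 24 bins of GFP, and the 10 larger were 3 before the tract, 1 in it and 6 beyond it. Between tract and stop codon both strains without Hel2 were high in summed 21 and 28 nt RPFs. They overlapped, with 401 and 591 rpm in *hel2Δ slh1Δ dom34Δ ski2Δ* cells and 423 and 288 rpm in *hel2Δ dom34Δ ski2Δ* cells. All these values lay above those of *slh1Δ dom34Δ ski2Δ* (238 and 256 rpm) and *dom34Δ ski2Δ* cells (62.1 and 47.8 rpm). Relative to the far-upstream RPFs, mostly GFP's own, no bin was smaller, and 22, 23 and 24 bins of 16, 21 and 28 nt RPFs were larger. The 14 bins of 21 nt RPFs came down to 4 or 8 without the first or second *slh1Δ dom34Δ ski2Δ* library and to 7 or 2 without the first or second *dom34Δ ski2Δ* library, and the 22 of 28 nt RPFs to 9 or 14 and to 16 or 9. For 16 nt RPFs 10 to 15 bins differed. For summed 21 and 28 nt RPFs before the tract, *hel2Δ slh1Δ dom34Δ ski2Δ* cells had 7852 and 11737 rpm and *hel2Δ dom34Δ ski2Δ* cells 5985 and 3656 rpm. Their log2 difference of 1.04 was 0.50 below that in cells with Hel2 (exact p = 0.444). The gap was 0.141 and 0.852 without the first or second *hel2Δ dom34Δ ski2Δ* library, 0.206 and 0.786 without the first or second *hel2Δ slh1Δ dom34Δ ski2Δ* library, and 1.62 relative to the far-upstream RPFs.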

How the data were processed

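Per the labels and the study's methods, the authors trimmed reads with skewer (0.2.2 in the processing notes) and aligned them with STAR (2.5.3a) to R64 (sacCer3) and the reporter. They deposited the traces as RPM (reads scaled to the library's depth) per reporter nt and RPF size, 16 nt RPFs by 3′ end and the others by A site. All values (100%) were whole multiples of 1 read within a tolerance of 0.1 reads, which gave whole reads and depths of 1261876 to 15416759 reads over the 14 monosome libraries. The other 15 value columns, of disomes or with no match to these libraries, were not used.

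Region sums were compared as log2(rpm + 1) by exact permutation. Sums per codon (528 windows) and per 30 nt (52 bins) were tested as log2(rpm + 0.1) with limma (3.58.1, trend, R 4.3.3), one fit over the 14 libraries and 8 strains, with a minimum mean of 0.5 rpm and Benjamini-Hochberg adjustment over the windows tested. The log2 scale with a pseudocount understates changes at low values. edgeR (4.0.16) on recovered reads called 76, 58 and 103 windows (16, 21 and 28 nt). The limma fit of the 4 libraries alone called 83, 59 and 141 windows, of which 0, 6 and 30 were lower. It called 30 and 35 bins of 21 and 28 nt RPFs, of which 9 and 11 were lower. The tests were tried on simulated counts in which every window had the same assumed spread, and nothing here rests on the outcome. The codons named are the 5 highest in either strain and the 5 largest called rises and falls of each size, with the codons from −30 to −19 (16 nt) and CGA codons 2 to 5 (21 nt). The members and lists were chosen with earlier results of these data known.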

Additional observations from a re-analysis of the deposited data

Results flagged for a closer look

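The effect of losing Slh1 differed between cells with and without Hel2 in 54 of 130 codon windows of 16 nt RPFs (41.5%), by a limma contrast of the 2 differences. All 54 had the larger difference in cells with Hel2. It differed in 19 of 323 windows of 21 nt RPFs (5.88%; 17 larger and 2 smaller in cells with Hel2). For 28 nt RPFs it differed in 14 of 446 (3.14%; 6 larger and 8 smaller). In 30 nt bins it differed in 15 of 49 (30.6%), 14 of 52 (26.9%) and 22 of 52 (42.3%) for 16, 21 and 28 nt RPFs. The 15 were all larger in cells with Hel2, the 14 were 11 larger and 3 smaller, and the 22 were 10 larger and 12 smaller. Leaving out the first *slh1Δ dom34Δ ski2Δ* library left 33, 0 and 0 of these windows (42 and 82 windows of 21 and 28 nt RPFs at an unadjusted p under 0.05).

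For 3 sums of 16 nt RPFs every library without Slh1 was higher in cells with Hel2 and every library was lower in cells without it, which is why they are listed. Before the tract the 2 log2 differences were 3.53 apart, and from −30 to −19 they were 2.65 apart (20.1 and 44.4 rpm in *hel2Δ slh1Δ dom34Δ ski2Δ* cells, 53.0 and 63.8 rpm in *hel2Δ dom34Δ ski2Δ* cells; exact permutation p = 0.444). Over the 2A peptide and linker they were 2.97 apart (19.2 and 17.5 rpm, and 22.2 and 23.8 rpm; exact permutation p = 0.0556, the smallest possible). The 21 and 28 nt RPFs on GFP ran the other way, −1.22 apart, with 1569 and 2260 rpm in *hel2Δ slh1Δ dom34Δ ski2Δ* cells and 1317 and 1166 rpm in *hel2Δ dom34Δ ski2Δ* cells (exact permutation p = 0.0556). The first *hel2Δ slh1Δ dom34Δ ski2Δ* library was the shallowest of these at 3179018 reads.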

How the results depend on the processing

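Leaving out 1 of the 4 libraries with Hel2 in turn, and none of those without it, gave ranges of 3.10 to 3.15 (16 nt) and 1.46 to 1.60 (21 and 28 nt) for the log2 differences before the tract, −0.0166 to 0.327 over the 2A peptide and linker (21 and 28 nt; −0.0166 without the second *slh1Δ dom34Δ ski2Δ* library), −0.107 to 0.770 for 21 nt RPFs in CGA codons 2 to 5 and −1.01 to 6.23 percentage points for their share. It gave 5 to 23 called windows of 21 nt RPFs and 24 to 51 of 28 nt RPFs, and in the contrast with Hel2 32 to 38 windows of 16 nt, 0 to 16 of 21 nt and 0 to 1 of 28 nt RPFs, and 2 to 8 bins of 21 nt and 9 to 16 of 28 nt RPFs. Taken over the whole frame upstream in place of 300 nt, GFP included, the mean position lay nearer to the tract without Slh1 (differences of −27.2 nt for 16 nt and −100.2 nt for 28 nt RPFs). On log2(rpm + 1) the best lag was 1 and 1 nt without Slh1 and 1 and −59 nt with it (16 with 28 nt RPFs); of 28 nt RPFs with themselves it was 15 nt in the second library without Slh1 and 18 and 18 nt with Slh1. Relative to the far-upstream RPFs, 151 windows of 28 nt RPFs were called, and 53 and 90 in the contrast with Hel2 (21 and 28 nt), with 23 bins of 21 nt RPFs. In that contrast, 28 nt windows numbered 27 with a pseudocount of 1 rpm, 4 with no filter and 41 with edgeR. Of 42 named windows, 5 changed sign under an alternative and none of these was called: 16 nt −27 (0.0404) and 28 nt −84 (0.27) relative to the far-upstream RPFs, 21 nt at 0 with edgeR (−0.11), and on leaving out 1 library 21 nt at 0 (−0.64 to 0.71), 21 nt at 6 (−0.15 to 0.63), 28 nt −21 (−0.0599 to 0.44) and 28 nt −84 (−0.40 to 0.18, with 0.13 without the first *dom34Δ ski2Δ* library). Same-numbered libraries share a number and a deposited table, and the labels name no shared culture or day. Their deviations correlated at 0.232, 0.197 and 0.294 over windows (16, 21 and 28 nt), and with a replicate block 76, 56 and 108 windows were called, and 33 of 28 nt in the contrast with Hel2, while region sums allow no p below 0.5 in 2 pairs. Adding the tract to the 300 nt, an alternative chosen after seeing the data, left the direction of the sums before the tract as it was (log2 3.08, 1.32 and 1.48 for 16, 21 and 28 nt RPFs), but the 21 nt share then overlapped between strains and changed sign (−1.76 percentage points, 2.34 without the tract). Having 2 libraries a strain, and fewer than 3 reads per codon over much of the downstream frame with Slh1, limit what single codons can show.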
